A study of Mus musculus with 11 samples.

Results

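The *Mrpl* and *Mrps* genes of the nuclear genome encode the proteins of the large and the small subunit of the mitochondrial ribosome. They were taken as every row of the deposited count table whose symbol begins with Mrpl or Mrps followed by a number, without the 5 rows named as pseudogenes (-ps). This gave 75 genes of the 13669 in the table, 48 of the large and 27 of the small subunit, and all 75 passed the filter on low counts (above 10 reads in 5 or more livers), which 13334 genes passed. *Mrpl53*, *Mrps34* and *Mrps18b* were not analysed here.

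The liver RNA came from 11 male wild-type C57BL/6J mice. They were kept on regular chow and injected with recombinant adeno-associated virus (rAAV) of serotype 8 with the liver-specific LP1 promoter, at 5e11 genome copies per mouse. In 6 mice the virus expressed a tough decoy (AAV-TuD), a hairpin RNA that sequesters *miR-379* and *miR-541*. The virus of the other 5 mice expressed a negative control sequence (AAV-NC). For its mice and its decoy studies in general, the study's methods give 6 weeks of age on arrival, 4 weeks of acclimation, and killing after a fast of 5 to 6 h, between 4 weeks and 3 months after the rAAV; the age and time of each of these animals are not given. The control group also carried virus, so the comparison is between decoy and control sequence and not between virus and none. The libraries sample the 3′ end of polyadenylated RNA, so that read numbers do not grow with transcript length. Levels of genes are set side by side below with a limit. Some members share sequence with pseudogenes or overlap an exon on the opposite strand, and their levels are uncertain. Nothing in the labels names a batch.

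Mitochondria hold their own ribosomes, which translate the proteins that mitochondrial DNA encodes, all of them subunits of the oxidative phosphorylation complexes. The RNA of these ribosomes is made in the mitochondrion, whereas their proteins are translated in the cytosol and imported. Many of the proteins have a bacterial homolog and the others were added during the evolution of mitochondria. Assembly needs each protein in step with the others, and the genes are known as housekeeping genes whose promoters often carry sites for ETS factors such as GABPA, for NRF1 and for YY1.

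A miRNA pairs with its targets mostly through its seed, bases 2 to 8. The mature sequences of the miRNAs that the decoy binds are shown because the matches below are counted against them, with the seed in capitals (RefSeq, GRCm38.p6).
miR-379-5p: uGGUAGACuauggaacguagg
miR-541-5p: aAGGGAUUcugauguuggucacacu

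With the longest 3′ UTR that GENCODE M21 lists for a gene, the complement of the *miR-379* seed was present in 3 of 74 member genes (4.05%) and in 5.20% of the 10917 tested genes with an annotated UTR. The complement of the *miR-541* seed was also present in 3 of 74 (4.05%), against 8.96% of tested genes. The members' 3′ UTRs were short, with a median of 403 bases against 1217. The sites of the 6 genes are printed in the sense of the transcript, with the bases that pair with the seed in capitals; *Mrps26* held a pair of sites, of which the first is shown.
Mrpl1, miR-379-5p: ccgggacccttctGTCTACCttct
Mrps17, miR-379-5p: catggtctaacctGTCTACCagga
Mrps16, miR-379-5p: tcaaactccgtatGTCTACCtaca
Mrps26, miR-541-5p: ctgaaggttttggAATCCCTaaga
Mrpl50, miR-541-5p: atctgcttaagaaAATCCCTtagt
Mrps35, miR-541-5p: cactgtgttggaaAATCCCTaagc
The longest UTR may belong to a minor isoform, and whether these UTRs are used in liver was not examined.

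The members were expressed at a moderate and even level. Values are given in CPM (counts per 1e6 reads, with library sizes scaled by the TMM factors of edgeR). The median of the 75 genes was 18.4 CPM over all livers, 20.5 for the large and 16.1 for the small subunit. Of the 75, 67 lay between 10 and 50 CPM, 3 were at 50 CPM or above and 5 were under 10. *Mrps21*, *Mrpl34* and *Mrpl18* were the most abundant. *Mrps21* was measured at 88.4 ± 14.5 CPM (SD, 5 livers) with AAV-NC and 86.6 ± 6.48 CPM (SD, 6 livers) with AAV-TuD, *Mrpl34* at 93.9 ± 15.7 and 81.4 ± 7.39, and *Mrpl18* at 59.6 ± 4.87 and 55.7 ± 6.68.

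The least abundant members were *Mrpl24*, *Mrps28* and *Mrps11*. *Mrpl24* had 1.14 ± 0.312 CPM in AAV-NC livers and 0.903 ± 0.183 in AAV-TuD livers, or 6 to 14 reads per liver, and its 3′ end overlaps an exon of *Rrnad1* on the opposite strand, so its reads are uncertain. *Mrps11* had 5.81 ± 0.762 and 5.02 ± 0.575 CPM. When the 75 genes were ordered by their mean level, 7 of the 74 neighbouring pairs differed by more than their SD over the 11 livers. These included *Mrpl34* and *Mrpl18*, *Mrpl18* and *Mrpl12*, and *Mrps11* and *Mrpl24*, whereas *Mrps21* and *Mrpl34* at the top of the order did not differ beyond it.

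**Figure D1:**
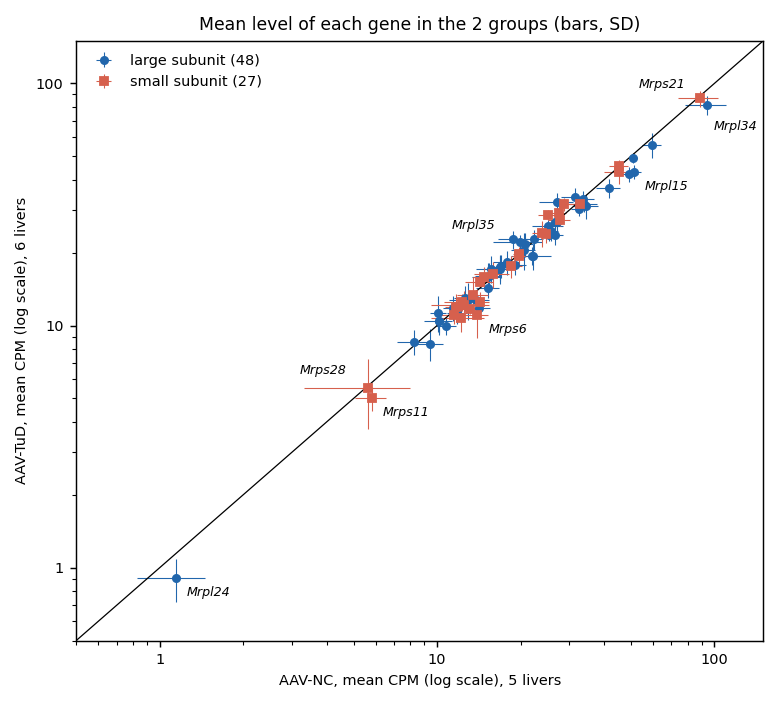
Mean CPM of each of the 75 genes in the 5 AAV-NC livers (x axis, log scale) and the 6 AAV-TuD livers (y axis, log scale), with the SD as bars and the line of equal level. The large (48) and small (27) subunit genes lie along the line, from *Mrpl24* near 1 CPM to *Mrps21* and *Mrpl34* near 90.

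Across the livers the summed transcripts of both subunits stayed within a narrow range. The large subunit summed to 1135, 1114, 1104, 1196 and 1175 CPM in AAV-NC livers 1, 2, 6, 7 and 8, and to between 1066 and 1162 CPM (median 1087) in the 6 AAV-TuD livers. The small subunit summed to 572, 564, 589, 655 and 610 CPM in the same AAV-NC livers and to between 575 and 628 CPM (median 586) with AAV-TuD. Both groups of livers overlapped in both sums, with AAV-NC liver 7 the highest in each. The ratio of large to small was 1.92 ± 0.067 (SD) over the 5 AAV-NC livers and 1.86 ± 0.0686 over the 6 AAV-TuD livers. AAV-TuD liver 10 had the highest ratio of all livers (1.998) and the other 5 AAV-TuD livers lay between 1.82 and 1.85.

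**Figure D2:**
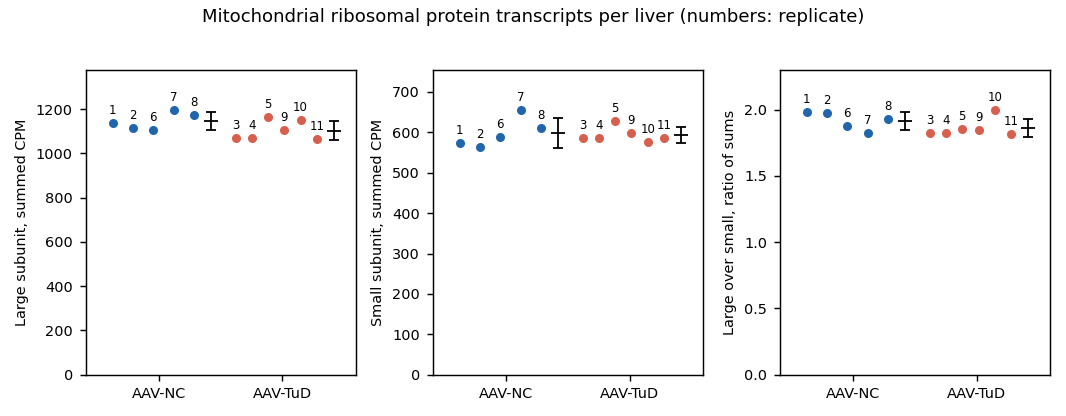
Summed CPM of the 48 large subunit genes, of the 27 small subunit genes, and the ratio of the sums (y axes, from 0), in each AAV-NC and AAV-TuD liver, labelled by replicate number, with mean and SD beside each group. The groups overlap in all 3 panels, and AAV-TuD liver 10 stands above the other AAV-TuD livers in the ratio.

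The scale of these values depends on the other genes in a library. Between 8148531 and 12043959 reads were counted per liver, and the major urinary protein (*Mup*) genes took 38.6% of them in AAV-NC liver 7, 30.9% and 28.4% in AAV-TuD livers 3 and 5, and 8.09% to 18.7% in the others. As a share of all reads, the 75 members took 0.124% to 0.183% with AAV-NC and 0.146% to 0.213% with AAV-TuD. With *Mup* reads left out of the total, these shares were 0.197% to 0.213% and 0.211% to 0.237%. The TMM factors lay between 0.667 and 1.24. With library size alone as the scale, the median log2 fold change of all tested genes was 0.23, and that of the members was also 0.23.

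*Mrpl15*, a large subunit protein with a bacterial homolog, was the member called at the threshold of 0.05. Its level was 55.5, 49.3, 48.4, 50.3 and 52.9 CPM in AAV-NC livers 1, 2, 6, 7 and 8, and between 39.9 and 47.3 CPM (median 43.0) in the AAV-TuD livers. All 6 AAV-TuD livers were below the lowest AAV-NC liver. The mean fell from 51.3 ± 2.91 to 43.2 ± 2.75 CPM, a log2 fold change of -0.25 ± 0.07 (SE) with a 95% interval of -0.40 to -0.10 (edgeR's quasi-likelihood test, Benjamini-Hochberg adjusted p = 0.0302). The gene lies on the minus strand at chr1:4773206-4785739 (GRCm38), and no processed pseudogene with at least 95% identity to the last 300 bases of its transcripts was found. The call rested on small margins. It was lost without AAV-NC liver 1 or 8 or AAV-TuD liver 4 or 9 (adjusted p between 0.0638 and 0.0802 in the same edgeR test). With library size alone as the scale *Mrpl15* was not called (edgeR adjusted p = 0.954). Its log2 fold change was then -0.02, where the median of all genes tested was 0.23.

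No other member passed the threshold. One of 75 genes was called lower and none higher, while 11.6% of the 13334 genes tested were called, 4.33% lower and 7.24% higher. The livers of the groups did not overlap for *Mrpl15* alone, against 7.39% of genes tested. At an unadjusted p under 0.05 there were 8 members (10.7%) in the edgeR test, against 26.3% of all genes tested, and DESeq2 called *Mrpl15* and *Mrpl51*. The members' read depth lay mostly between 105 and 419 reads per liver, their 10th and 90th percentiles. Among the 3672 tested genes in this range 10.4% were called, against 0 of the 59 members in it (6 of these had an unadjusted p under 0.05 in edgeR's quasi-likelihood test).

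The fold changes of the members were small and measured closely. Their median was -0.02 on the log2 scale, with quartiles at -0.10 and 0.04 and a range of -0.35 to 0.27, and 34 were positive and 41 negative. For 72 of the 75 the 95% interval lay inside a 1.5-fold change in either direction, as it did for 56.5% of all genes tested and 83.5% of the genes with like read depth. The exceptions were *Mrpl24*, *Mrps28* and *Mrps6*. No member had a fitted change larger than 1.5-fold, against 11.4% of all genes tested.

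**Figure D3:**
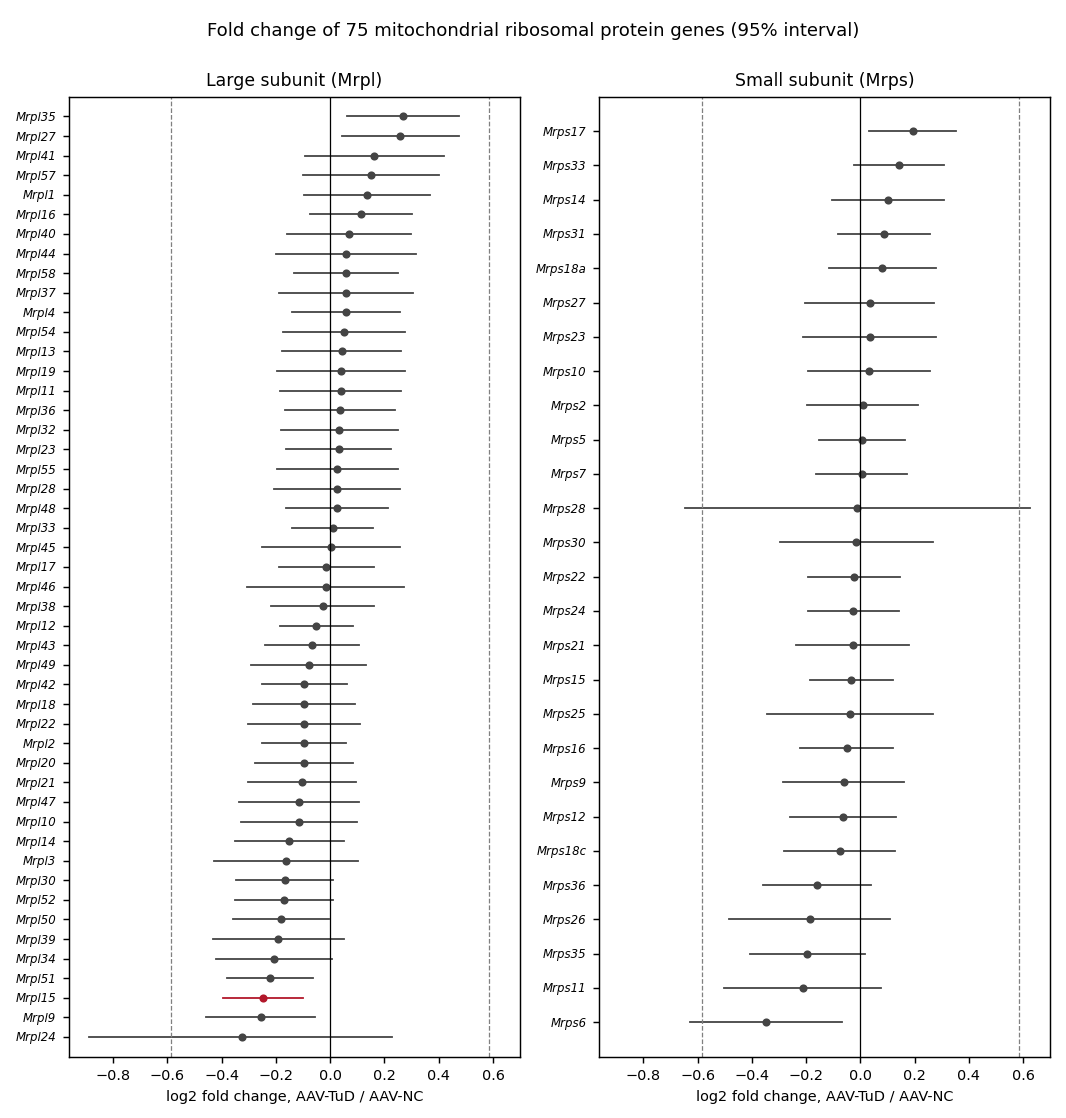
Log2 fold change of AAV-TuD over AAV-NC (x axis) for each of the 75 genes, with its 95% interval from edgeR; the large subunit is on the left, the small subunit on the right, and dashed lines mark a 1.5-fold change. *Mrpl15*, in red, is the one gene with an adjusted p under 0.05, and 72 of 75 intervals lie between the dashed lines.

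The subunits were described separately, with no test between them. The median log2 fold change was -0.02 for the 48 large subunit genes, with 1 called lower, and -0.02 for the 27 small subunit genes, with 0 called (2 had an unadjusted p under 0.05 in edgeR's quasi-likelihood test). In structures of the mammalian ribosome the products of *Mrps30* and *Mrps18a* sit in the large subunit, and that of *Mrps36* is a component of the 2-oxoglutarate dehydrogenase complex. Grouped in that way, the medians were -0.01 for 50 large and -0.02 for 24 small subunit genes. Among the 46 genes with a bacterial homolog 1 was called and the median was -0.03. Among the 28 genes of proteins particular to mitochondria 0 were called (2 at an unadjusted p under 0.05 in the edgeR test). The median of these 28 was -0.01.

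After *Mrpl15*, the smallest p values belonged to 7 members that did not pass the threshold. *Mrpl51*, a large subunit protein without bacterial homolog that was chosen here after its values were seen, had 51.1, 43.4, 48.9, 52.8 and 50.03 CPM in AAV-NC livers 1, 2, 6, 7 and 8 and 38.2 to 47.1 CPM (median 42.2) with AAV-TuD. Of the 6 AAV-TuD livers, 4 lay below every AAV-NC liver. The log2 fold change was -0.22 ± 0.07 (SE), with an adjusted p of 0.0658 in edgeR and 0.0447 in DESeq2.

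*Mrpl9*, also of the large subunit, had 14.6, 15.7, 14.6, 12.1 and 13.8 CPM in the AAV-NC livers in the same order and 10.8 to 13.1 CPM (median 11.8) with AAV-TuD. Again 4 AAV-TuD livers lay below every AAV-NC liver, with a log2 fold change of -0.26 ± 0.09 (edgeR adjusted p = 0.0906). *Mrps6*, of the small subunit, had the most negative fitted value of its subunit. It was measured at 13.2, 13.1, 15.1, 12.8 and 15.7 CPM with AAV-NC and at 7.61 to 13.7 CPM (median 11.1) in the AAV-TuD livers. The log2 fold change was -0.35 ± 0.13 with a 95% interval of -0.63 to -0.07 (edgeR adjusted p = 0.100), and AAV-TuD liver 3 was the lowest.

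On the positive side, *Mrpl35*, *Mrpl27* and *Mrps17* each had 5 of 6 AAV-TuD livers above every AAV-NC liver. *Mrpl35* had 20.9, 18.3, 21.5, 17.9 and 15.8 CPM with AAV-NC and 20.1 to 25.9 CPM (median 22.6) with AAV-TuD, a log2 fold change of 0.27 ± 0.10 (SE, edgeR adjusted p = 0.0859). *Mrpl27*, whose bacterial homolog lies close to the peptidyl transferase centre, had 28.5, 27.8, 28.8, 29.9 and 20.5 CPM with AAV-NC and 27.1 to 35.7 CPM (median 32.8) with AAV-TuD. Liver 8 stood apart from the other AAV-NC livers. The log2 fold change of 0.26 ± 0.10 (edgeR adjusted p = 0.113) was 0.17 without that liver, and with library size alone as the scale *Mrpl27* was the only member called (0.50, adjusted p = 0.0498). *Mrps17* had 26.4, 27.9, 22.8, 24.9 and 23.7 CPM with AAV-NC and 27.0 to 30.8 CPM (median 28.5) with AAV-TuD, with a log2 fold change of 0.19 ± 0.08 (edgeR adjusted p = 0.114).

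*Mrps28* varied most between livers of one group. Its level was 6.09, 6.80, 5.20, 8.14 and 1.95 CPM in AAV-NC livers 1, 2, 6, 7 and 8 and between 2.59 and 7.89 CPM (median 5.71) with AAV-TuD. AAV-NC liver 8, with 20 reads, and AAV-TuD liver 10, with 30, were the lowest, while the other livers had 47 to 84 reads. The within-group SD was 0.65 on the log2 CPM scale, against a median of 0.14 over the members. *Mrps11*, with a mean of 53.2 reads per liver against 54.9 for *Mrps28*, had an SD of 0.17. At the other end *Mrpl12*, a protein of the stalk that receives the translation factors, had an SD of 0.06. Its mean level was 49.9 CPM, against a median of 18.4 over the members, and the SD was not adjusted for level.

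**Figure D4:**
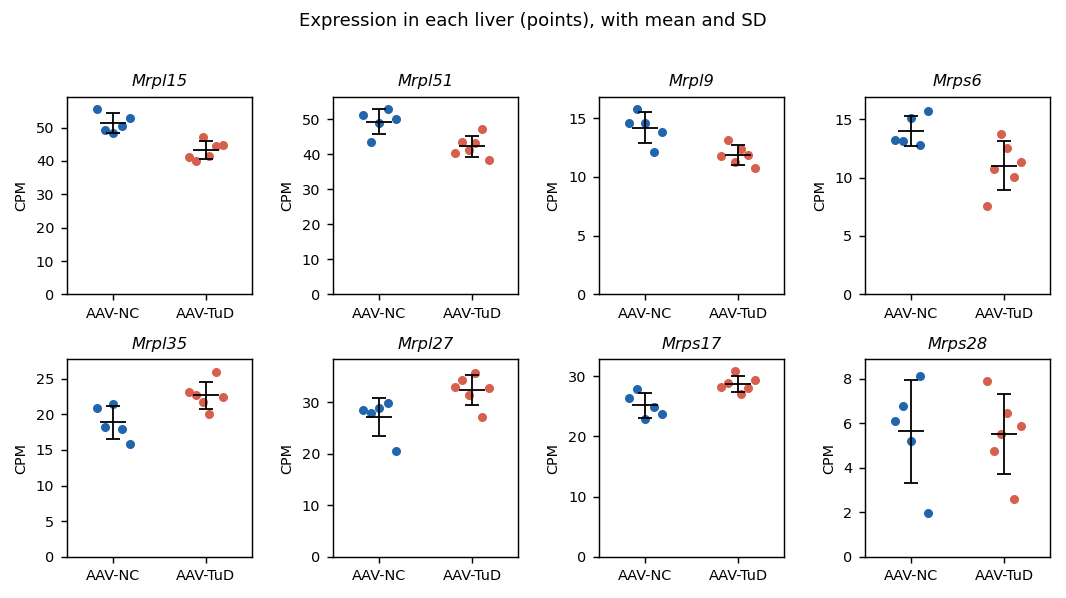
CPM (y axes, from 0) of 8 genes in each AAV-NC (n = 5) and AAV-TuD (n = 6) liver, with mean and SD. The livers of the groups are separated for *Mrpl15* only, and *Mrps28* shows 1 low liver in each group.

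The members that carry a defined function in the ribosome lay close to no difference. Among the stalk proteins, the log2 fold change was -0.05 for *Mrpl12* (50.9 ± 1.80 CPM in AAV-NC and 49.1 ± 2.32 in AAV-TuD livers), -0.12 for *Mrpl10*, 0.04 for *Mrpl11* and 0.05 for *Mrpl54*. For proteins around the exit of the nascent chain it was -0.10 for *Mrpl22*, 0.03 for *Mrpl23*, -0.19 for *Mrpl39*, 0.06 for *Mrpl44* and 0.00 for *Mrpl45*, the protein that holds the ribosome at the inner membrane. Adjusted p values of these 9 genes were at least 0.311 in edgeR's quasi-likelihood test. Without AAV-NC liver 7, *Mrpl39* was at -0.09.

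*Mrpl58*, a peptidyl-tRNA hydrolase that rescues stalled ribosomes and became part of the large subunit, had 17.0 ± 0.318 and 17.7 ± 1.93 CPM (log2 fold change 0.06). In the small subunit, *Mrps12* of the decoding centre had 45.1 ± 5.16 and 43.2 ± 4.75 CPM (-0.06), and *Mrps22*, in which variants cause mitochondrial disease in humans, had 19.7 ± 0.982 and 19.4 ± 1.36 CPM (-0.02). The paralogs *Mrps18a* and *Mrps18c* had log2 fold changes of 0.08 and -0.08. *Mrps30* was at -0.01 and *Mrps36* at -0.16. Adjusted p values of these 7 genes were at least 0.302 in the same edgeR test, and the 95% interval of each lay inside a 1.5-fold change.

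The remaining members with large fitted values in their subunit did not pass the test either. These were *Mrpl24* (-0.33 ± 0.26, SE) and *Mrpl41* (0.16 ± 0.12) of the large subunit, and *Mrps11* (-0.21 ± 0.14), *Mrps35* (-0.20 ± 0.10), *Mrps33* (0.14 ± 0.08) and *Mrps14* (0.10 ± 0.10) of the small subunit. Their adjusted p values in edgeR's quasi-likelihood test were between 0.231 and 0.554. Single livers moved some of these values: *Mrpl24* was at -0.19 without AAV-NC liver 6, *Mrpl41* at 0.07 without AAV-TuD liver 10 and *Mrps11* at -0.14 without AAV-NC liver 1.

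The genes whose UTR sites are printed above were not called, and their values lay on both sides of 0. For the *miR-379* matches the log2 fold change was 0.14 ± 0.11 (SE) for *Mrpl1*, 0.19 ± 0.08 for *Mrps17* and -0.05 ± 0.08 for *Mrps16*. For the *miR-541* matches it was -0.19 ± 0.14 for *Mrps26*, -0.18 ± 0.08 for *Mrpl50* and -0.20 ± 0.10 for *Mrps35*. All 3 genes with a *miR-541* match had a negative value, and their edgeR adjusted p values were 0.433, 0.183 and 0.231. Over all tested genes the median log2 fold change was 0.00 for the 978 with this match and 0.02 for the 568 with the *miR-379* match.

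Matches to other miRNAs that the cluster encodes were also counted. The complement of the *miR-382* seed (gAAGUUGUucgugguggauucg) was present in 12 of 74 members (16.2%, against 10.9% of tested genes), and that of the *miR-134* seed (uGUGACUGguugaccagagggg) in 12 (16.2%, against 12.4%). For the members with a match the median log2 fold change was 0.00 and -0.02. One *miR-134* match was in the longest UTR of *Mrpl15*.
Mrpl15, miR-134-5p: ctagcccttgtgcCAGTCACaagg
*miR-409-3p* matches were found in 4 members (5.4%, against 9.9% of tested genes) and *miR-409-5p* matches in 3 (4.05%, against 4.35%).

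The promoters of the members shared letters that the choice of genes did not use. RefSeq start windows (250 bases before to 50 after the start, GRCm38.p6) were given for 67 of the 75 genes, in 73 windows, and *Mrpl15* was not among them. Each motif was searched on both strands. The ETS core CCGGAAG was present in 32.9% of the members' windows, in 17.2% of those of all tested genes and in 8.86% of all RefSeq windows. The YY1 core AAGATGGC was present in 16.4%, against 4.37% and 2.75%, and the NRF1 core GCATGCGC in 9.59%, against 4.98% and 2.71%. The E-box CACGTG was present in 9.59%, against 9.57% of the windows of tested genes and 7.15% of all RefSeq windows. The GC box GGGCGG was present in 52.1%, against 60.2% and 35.7%. Some genes have several overlapping windows, so the shares were also counted by gene. The ETS core was in 24 of 67 members and 1823 of 8988 tested genes, the YY1 core in 12 and 481, and the NRF1 core in 7 and 535. The E-box was in 5 of 67 members and 1032 of 8988 tested genes, and the GC box in 33 and 6029. A match is a string of letters and does not show that a factor binds there.

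One match of each kind is shown for genes described above, with the motif in capitals, on the strand of the gene.
Mrpl51, ETS core, chr6:125192101-125192126: ggggctaaaCCGGAAGtatttgactg
Mrpl27, ETS core: ccgcaagacCCGGAAGtagatctatc
Mrpl35, YY1 core: gcaggctgcAAGATGGCggcttccat
Mrpl9, NRF1 core, chr3:94443301-94443326: cgcagctgcGCATGCGCggggtcctt
Neither Mrpl51 (-0.22) nor Mrpl27 (0.26) passed the test, and a relation of the motifs to the fold changes was not tested.

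The members varied together only weakly. Over the 2775 pairs of members, the median correlation of log2 CPM across the 11 livers, after removal of the group means, was 0.10, against 0.00 for the pairs of the 3672 tested genes with like read depth. It was 0.09 within the large subunit, 0.12 within the small subunit and 0.09 between subunits. The livers share scaling factors and composition, and these values are a description. The part of counting noise in them was not examined.

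Other genes of mitochondrial translation were read from lists written from general knowledge. The 5 ribosomal proteins that carry other names, among them the small subunit GTPase-like protein *Dap3*, had 0 genes called and a median log2 fold change of -0.04 (0 at an unadjusted p under 0.05 in the edgeR test). Of 14 translation factors 2 were higher and 0 lower. *Mtrf1*, a release factor, rose from 2.60 ± 0.392 to 3.96 ± 0.718 CPM (log2 fold change 0.60 ± 0.18 SE, edgeR adjusted p = 0.0437), and *Guf1*, a GTPase of elongation, from 8.17 ± 0.38 to 10.2 ± 0.602 CPM (0.31 ± 0.09, edgeR adjusted p = 0.0419). Both calls were near the threshold: *Mtrf1* kept its call in the leave-one-out fits only without AAV-NC liver 2 or AAV-TuD liver 10, and *Guf1* only without AAV-TuD liver 3 or 10. *Guf1* was also not called by DESeq2 (adjusted p = 0.0851) or with library size alone (0.0627).

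Lists further from the ribosome itself had no calls in edgeR's quasi-likelihood test with TMM factors. There were 0 of 27 assembly factors (3 at an unadjusted p under 0.05), 0 of 20 mitochondrial aminoacyl-tRNA synthetases (1) and 0 of 15 genes of mitochondrial RNA synthesis and processing (1). The synthetase was *Wars2*, named here after its values were seen (log2 fold change 0.63 ± 0.21 SE, edgeR adjusted p = 0.0602). It was called higher with limma-voom (adjusted p = 0.0444), with library size alone (0.0249) and without AAV-NC liver 7 (0.0375). Of the 9 nuclear regulators of such genes, which include *Nrf1*, *Gabpa* and *Yy1*, 0 were called (1 at an unadjusted p under 0.05). The one was *Myc*, named here after its values were seen, at 2.04 ± 1.23 CPM in AAV-NC and 0.789 ± 0.517 in AAV-TuD livers (log2 fold change -1.34 ± 0.47 SE, edgeR adjusted p = 0.0762). It was called lower by DESeq2 (adjusted p = 0.0465) and without AAV-NC liver 7 (edgeR adjusted p = 0.0376).

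The RNAs that the mitochondrial ribosome contains and reads had lower fitted values than the transcripts of its proteins. The 12S and 16S rRNA genes *mt-Rnr1* and *mt-Rnr2* had log2 fold changes of -0.34 ± 0.19 and -0.27 ± 0.17 (SE) and were not called (edgeR adjusted p = 0.279 and 0.339), whereas DESeq2 and limma-voom called *mt-Rnr2* lower (adjusted p = 0.012 and 0.0246). Of the 13 protein-coding genes of mitochondrial DNA, 11 had lower transcript levels and the median log2 fold change was -0.47. With library size alone as the scale 2 were lower and the median was -0.23. Of 80 cytosolic ribosomal protein genes 38 were lower and 0 higher, with a median of -0.21, and with library size alone 0 were called in either direction and the median was 0.01. The number of cytosolic genes called lower was 34, 23, 21, 31 and 27 without AAV-NC liver 1, 2, 6, 7 or 8. It was 33, 19, 34, 22, 24 and 23 without AAV-TuD liver 3, 4, 5, 9, 10 or 11. On all livers DESeq2 called 54 of these genes lower and limma-voom 43. With library size alone the median of the members was 0.23, and that of all genes tested was also 0.23. These differences between gene groups were not tested, and all groups were measured against the same AAV-NC livers. The libraries sample polyadenylated RNA, and how fully they capture the rRNA and the other mitochondrial RNAs was not examined.

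**Figure D5:**
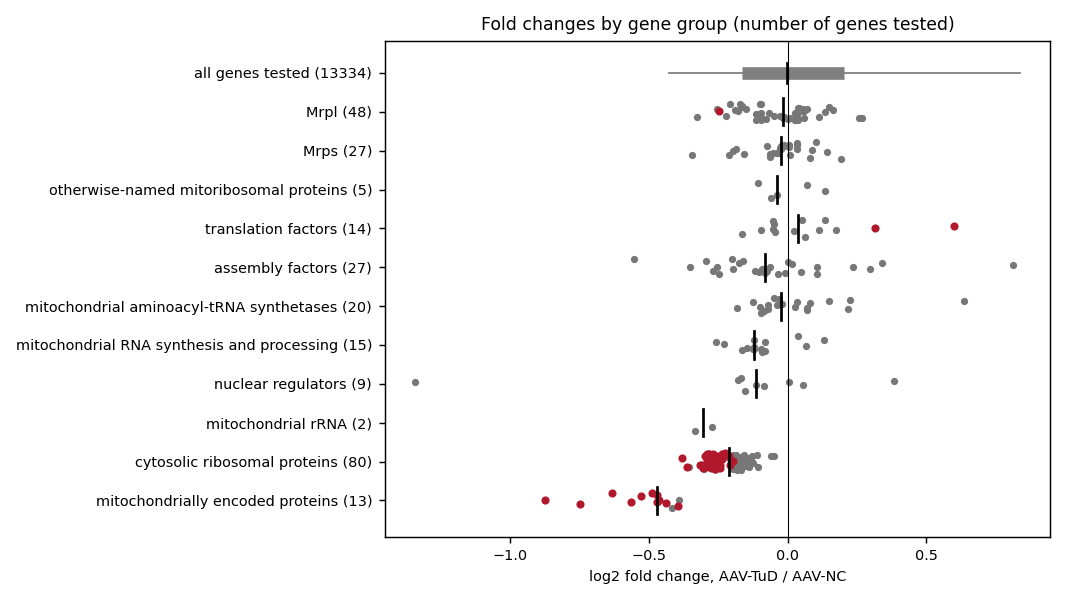
Log2 fold change of AAV-TuD over AAV-NC (x axis) for single genes (points) of each group, with the median as a black line and genes with an edgeR adjusted p under 0.05 in red; for all 13334 genes tested the thick bar spans the quartiles and the thin line the 5th to 95th percentile. The *Mrpl* and *Mrps* genes centre near 0 with 1 red point. Of the cytosolic ribosomal protein genes 38 of 80 are red and lower, and of the genes of mitochondrially encoded proteins 11 of 13. With library size alone these counts were 0 and 2, on a scale where the median of all genes tested was 0.23.

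Markers of other liver cells moved with the groups. In bulk tissue, a change in the number of cells of a type and a change in RNA per cell cannot be told apart. Of 7 stellate cell markers 6 were higher with AAV-TuD, and their summed level was 163 to 229 CPM in the AAV-NC livers and 293 to 399 CPM in the AAV-TuD livers. Kupffer cell and macrophage markers were higher for 4 of 6 (69.5 to 111 and 83.0 to 246 CPM), cholangiocyte markers for 4 of 4 tested of 5 (21.2 to 41.8 and 47.9 to 80.4 CPM), and proliferation markers for 4 of 4 tested of 5 (4.63 to 14.6 and 13.3 to 57.5 CPM). Of 6 lymphocyte and neutrophil markers 2 were tested and 1, *Ptprc*, was higher (7.30 to 13.5 and 7.98 to 20.04 CPM for the sum). That call was lost without AAV-NC liver 1, 2, 6 or 7 or AAV-TuD liver 4, 9 or 10 (edgeR adjusted p between 0.0543 and 0.0727). The markers *Cd3e*, *Cd79a*, *S100a8* and *Nkg7* were not analysed here. Sinusoidal endothelial markers had 0 of 6 called (0 at an unadjusted p under 0.05 in the edgeR test), with sums of 237 to 264 and 237 to 254 CPM. Hepatocyte markers were abundant in every liver (38124 to 44317 and 44469 to 51246 CPM), as the tissue label states. *Apob* was lower (log2 fold change -0.40 ± 0.10 SE, edgeR adjusted p = 0.0146; not called with library size alone), and 5 of the 7 had negative values. The sum was higher in every AAV-TuD liver than in any AAV-NC liver, and *Alb*, its largest part, had 21096 ± 2304 CPM with AAV-NC and 28044 ± 2727 CPM in AAV-TuD livers (edgeR adjusted p = 0.0805). DESeq2 and limma-voom each called 1 of the 7 higher and 2 lower. The part of these cell types in the values of the members was not tested.

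Some members share sequence with processed pseudogenes, and how the authors treated reads that match several places is not given in the sources used here. *Mrpl23* had 2804 reads in total and *Mrpl23-ps1*, identical to it over 298 bases at its 3′ end, had 2696, with a difference of at most 20 reads in a liver, so the reads of this pair cannot be assigned. *Mrps33* had 3361 reads and *Gm5776*, identical over 107 bases, had 1052, and *Mrps21* had 9650 against 1387 for *Gm6181*. *Mrps36*, *Mrps5*, *Mrpl22* and *Mrpl48* also have such a copy in the table, and the values of these genes are uncertain to that extent. None of the copies tested was called: their edgeR adjusted p values were at least 0.204. Besides *Mrpl24*, the 3′ ends of *Mrpl19*, *Mrps25*, *Mrpl10*, *Mrps7* and *Mrpl49* overlap an exon on the opposite strand, and the strand setting of the counting is not given in the sources used here.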

How the data were processed

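The authors prepared QuantSeq 3′ libraries from 500 ng of liver RNA, used BBDuk for trimming, STAR 2.5.3a for alignment to GRCm38 and Rsubread for counting reads per gene. The deposited values are these counts, whole numbers without normalization, for 13669 genes; per the submitters' processing notes DESeq2 1.38.3 was used downstream. Between 8148531 and 12043959 reads were counted per liver, so a gene near 1 CPM rests on about 10 reads.

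Genes above 10 reads in 5 or more livers were fitted in edgeR 4.0.16 (R 4.3.3) with TMM factors and the quasi-likelihood test on all 11 livers, with Benjamini-Hochberg adjustment over 13334 genes and a threshold of 0.05. Log2 CPM used a prior count of 2, and 95% intervals came from the fitted SE. The script was tested on simulated counts. Gene positions and 3′ UTRs came from GENCODE M21 (GRCm38), and start windows and miRNAs from RefSeq (GRCm38.p6). Groups came from the sample labels; nothing says more of the livers than that each is a separate sample.

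Alternatives were DESeq2 1.42.0, other scaling factors, library size alone, limma-voom (limma 3.58.1), other filters and each liver left out. The genes named were those called, the 3 of each subunit with the largest fitted value in each direction, the 3 highest and the 3 lowest in level, those with a defined role, and called genes of the other lists; *Mrpl51*, *Mrpl50*, *Mrpl1*, *Mrps16*, *Mrps26*, *Wars2*, *Alb* and *Myc* were chosen after their values were seen. Members, lists and rules were chosen with earlier results of these data known.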

Additional observations from a re-analysis of the deposited data

Results flagged for a closer look

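In 7 of 74 groups of values examined (9.46%; chance gives about 1 in 20), 1 liver stood far from the others of its group. The number in brackets is the gap to the nearest liver over the range of the group. *Mrpl27* was lowest in AAV-NC liver 8, at 20.5 CPM against 27.8 to 29.9 in the others (0.776). AAV-NC liver 7 was highest for *Mrpl18*, at 68.1 CPM against 56.6 to 59.0 (0.791), and for *Mrps22*, at 21.4 CPM against 19.0 to 19.5 (0.794). AAV-TuD liver 5 was highest for *Mrpl44*, at 10.5 CPM against 7.67 to 8.66 (0.652), and for *Mrps12*, at 52.4 CPM against 40.0 to 44.5 (0.636). AAV-TuD liver 10 was highest for *Mrpl41*, at 14.8 CPM against 9.80 to 11.6 (0.648), and for the ratio of summed large to small subunit transcripts, at 1.998 against 1.82 to 1.85 (0.826). AAV-NC liver 7 and AAV-TuD liver 5 are livers in which *Mup* genes took a large share of the reads (38.6% and 28.4%); the part of this in the values was not tested.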

How the results depend on the processing

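*Mrpl15* alone was called lower among the members with DESeq2 size factors, upper-quartile factors or factors computed without *Mup* genes in edgeR, with limma-voom, without a filter and with the filter of edgeR. DESeq2 called 2 members lower, *Mrpl15* and *Mrpl51*. Library size alone called 1 member higher (*Mrpl27*) and 0 lower, with medians of 0.23 for the large and 0.22 for the small subunit, and 71 genes lower over the whole table, where 95.1% of calls were higher against 62.6%; it shifts the median of all genes to 0.23. With each liver left out in turn, 0 to 2 members were called lower: 0 without AAV-NC liver 1 or 8 or AAV-TuD liver 4 or 9, and *Mrpl15* with *Mrpl51* without AAV-NC liver 2 or AAV-TuD liver 10. The log2 fold change of *Mrpl15* lay between -0.27 and -0.22, and the genes called lower in the whole table between 337 and 714. Of the values of the named genes, 574 kept their sign and their side of the threshold, 44 changed sign without passing the threshold, 4 passed it and 5 lost it. No paired analysis was possible because no replicate number occurs in both groups. *Mrpl24* rests on 6 to 14 reads per liver.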
